A study of Mus musculus with 6 samples.

Results

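The genes described here encode the coats and cargo receptors that move newly made proteins between the endoplasmic reticulum (ER) and the Golgi. They were chosen by name and not by a cutoff on their values, though earlier results of these data were known. The 41 symbols were each found on 1 of the 23282 rows of the count tables. They fall into the COPII coat with its scaffold proteins (12 genes), the COPI coat (9), the Arf GTPases (3), the p24 family of transmembrane cargo proteins (10 Tmed genes) and the remaining cargo and retrieval receptors (7). The data came from primary acinar cells, the enzyme-secreting cells of the exocrine pancreas, from mice of strain C57BL/6J, as 3 wild-type control libraries and 3 from the conditional knock-out (cKO, genotype ERRgamma -/-) of the orphan nuclear receptor ERRγ. All 6 cultures were kept in Waymouth's medium with serum, antibiotics, a trypsin inhibitor and epidermal growth factor. The labels give no driver of the deletion, deleted exons, purity of the cells, time in culture or age of the mice. They also do not say whether numbered libraries came from separate animals, so p-values cover only library-to-library spread, and that spread may be technical.

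Proteins leave the ER in COPII vesicles. The GTPase SAR1 recruits the inner coat of SEC23 and SEC24, where SEC24 binds cargo, and the outer coat of SEC13 and SEC31 then shapes the bud at exit sites organised by SEC16. COPI, a coat of 7 subunits brought to membranes by ARF GTPases, returns escaped ER proteins and recycled receptors from the Golgi. The p24 proteins, the lectins LMAN1 and LMAN2, and SURF4 select cargo, and the KDEL receptors catch ER chaperones and send them back. Acinar cells carry a very large flow of digestive enzymes through this route.

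Libraries were made by 3′ tag sequencing, which counts about 1 tag per transcript and so depends little on transcript length. They held 15.2 to 25.2 M counts. Esrrg, the gene named in the genotype, had 0 counts throughout the control group, and cKO replicates 1, 2 and 3 had 0, 9 and 1. Counts this low, from transcript ends that a deletion may spare, do not check the labels. Library sizes after TMM scaling, which centres most genes on no change, were on average 7.96 M (control) and 50.8 M (cKO). All levels below are counts per 1000000 (CPM) of that scaled size, and all log2 fold changes are cKO over control on that scale, with standard errors (SE), unless library totals are named.

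Relative to the bulk of genes, coat and cargo receptor genes were mostly lower in the cKO libraries. All 41 were tested: 22 fell, 3 rose and 16 did not pass an adjusted p of 0.05. Over all 13132 tested genes, 44.7% passed, with 20.7% lower and 24% higher. With the test limited to the 4183 genes of at least 10 CPM in 3 libraries, 38.9% were lower and 29.2% higher. Of the 41 genes 33 were among these, with 21 lower and 1 higher. The median log2 fold change of the 41 genes was -0.47, beside 0.10 for all tested genes. Of the 22 that fell, 12 fell at least 2-fold. Tmed11, Tmed6 and Copz2 fell by more than 4-fold. The 3 that rose were Sec23a, Tmed1 and Tmed9. The groups did not overlap in 27 of the 41 genes, 24 with cKO lower and 3 with cKO higher, against 56.2% of all tested genes, 25.4% lower and 30.7% higher. Sec16b, Sec24b, Arf5 and Tmed1 were past the cutoff of the filter on low counts in fewer than 3 control libraries and entered the test through their cKO counts. Tmed1 was the one of these 4 that was called, and its rise is read with that limit.

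The direction depends on the scale. Taken as shares of all counts in a library, 39 of the 41 genes (95.1%) were higher in cKO, and so were 98.9% of all tested genes. The summed share of each class was 6.25 (COPII), 6.02 (COPI), 9.20 (Arf), 2.58 (p24) and 4.79 (cargo and retrieval receptors) times the control value. Fitted on library totals, their median log2 fold change was 2.75, beside 3.36 for all tested genes, and 2 genes, Tmed6 (-1.33, adjusted p = 0.000442) and Tmed11 (-2.84, adjusted p = 5.67e-11), were called lower. Copz2 did not pass on that scale (0.09, adjusted p = 0.840). For the rest of the 41 genes, a fall described below is therefore relative to the bulk of genes, not to all counts. The ratio of related genes within a library, given for 18 pairs, is free of this choice.

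**Figure D1:**
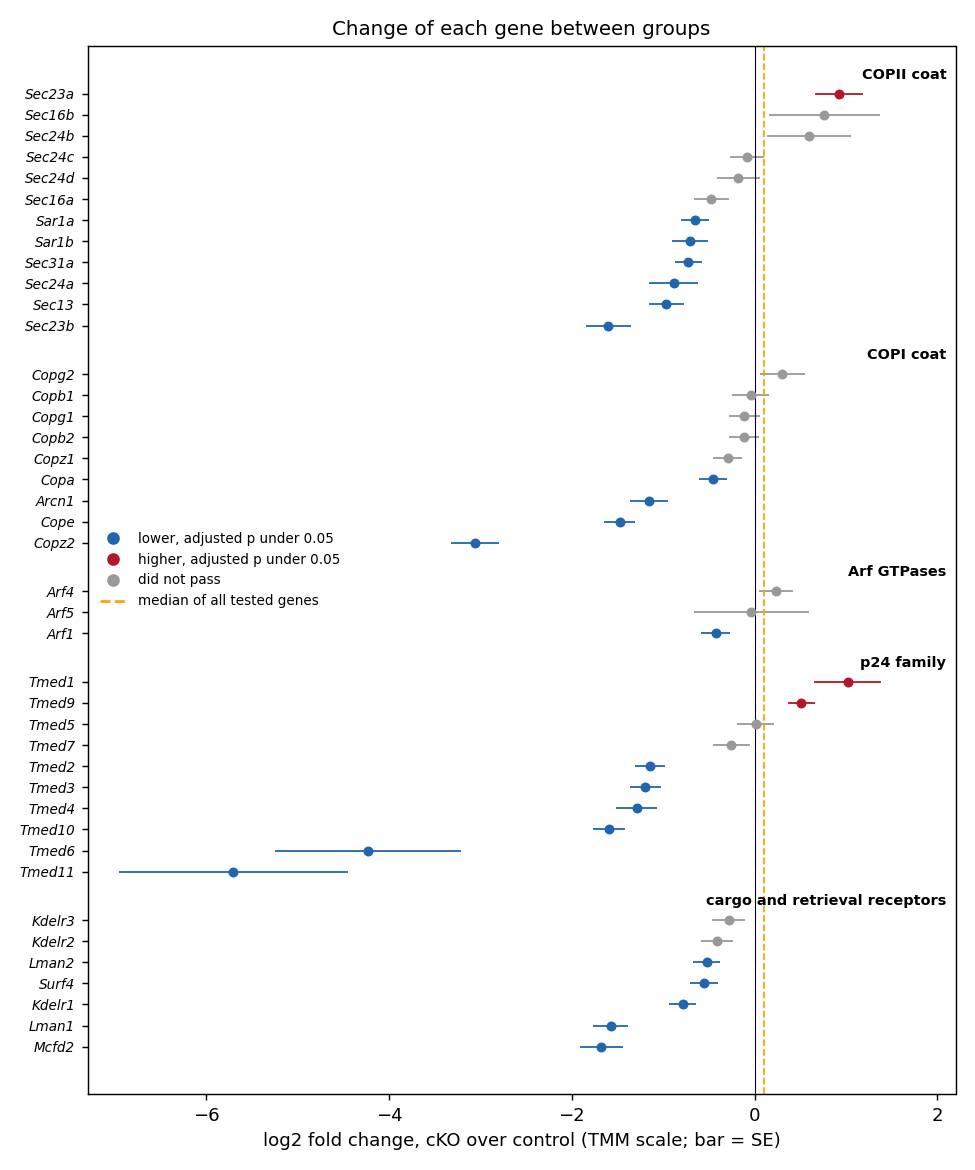
Log2 fold change of each gene, cKO over control on the TMM scale (x axis), by class, with bars of 1 SE and colours for the call at adjusted p under 0.05. Most points lie left of the median of all tested genes (dashed line, 0.10), with Tmed11 at -5.70, Tmed6 at -4.23 and Copz2 at -3.06, and Sec23a, Tmed1 and Tmed9 to the right.

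Other cell types and the acinar genes themselves moved with the groups. The 15 listed acinar markers fell in 15 of 15 cases on the TMM scale, with a median log2 fold change of -3.92. Their summed share of library counts, a different scale, was 32.1% ± 1.22 in control and 16.6% ± 8.90 in cKO (SD, n = 3 each). Of 9 fibroblast and stellate markers 8 rose, with a summed level of 725.6 to 820.3 CPM in control and 3577 to 5104 CPM in cKO. All 8 monocyte and macrophage markers rose, from 70.6 to 89.7 CPM up to 214 to 443 CPM in sum. Postn, Ptprc and Aif1 among these rises entered the test through their cKO counts. Duct markers gave 2 rises and 3 falls among 6 tested of 7 (199 to 239 CPM against 104 to 118 CPM), endothelial markers 0 rises and 2 falls of 5 (29.3 to 32.6 against 13.2 to 20 CPM), and islet markers 0 rises and 1 fall of 7 (589 to 948 against 409 to 843 CPM). These CPM sums are on the TMM scale. As shares of library counts, the sums in cKO were 57.9 (fibroblast and stellate) and 44.8 (monocyte and macrophage) times control. For duct, endothelial and islet markers they were 4.76, 4.77 and 7.62 times control, and for acinar markers 0.517 times. No listed marker was at 0 in a whole group. Acinar markers were thus present in every library, and the part that cell mixture had in the values below was not tested. In bulk samples such as these, fewer cells of a type and less RNA per cell cannot be told apart.

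Before the values, promoters of 7 genes are shown, to set pairs of related genes and genes with and without 2 short motifs side by side. In the RefSeq windows of GRCm38.p6 (250 bases before to 50 after the start site), 35 of the 41 genes had an entry. TGACGTGG, the core of the element bound by the unfolded protein response factors ATF6 and XBP1, was searched on both strands. It was found in 7 of these 35 genes (20%), namely Sec16b, Sec23a, Sec24d, Copb1, Copb2, Arf1 and Kdelr3. The same letters were in 0.714% of all 27025 genes with a window and in 1.05% of the 9643 tested genes with one. The shorter CCACG, also searched on both strands, lies within the reverse complement of TGACGTGG and so overlaps every such match. It was in 28 of the 35 genes (80%) and in 51.1% of the tested genes. Mean GC content of the windows was 60.9% for the 35 genes and 60.6% for the tested genes. The extended ERR element TNAAGGTCA was in 0 of the 35 and in 0.892% of the tested genes. The ER stress elements known as ERSE and ERSE-II were likewise in 0 of the 35, and in 0.207% and 0.0830% of the tested genes. These matches describe letters in a window, not bound sites.

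The windows of Copb2 (chr9:98563481-98563780, plus strand) and Kdelr3 (chr15:79516158-79516457, plus) show the longer motif close to the start site, 7 and 30 bases before it. Sec23a (chr12:59011968-59012267, minus) has it 6 bases after, while its paralog Sec23b (chr2:144555979-144556278, plus) has neither motif. Copz1 (chr15:103272638-103272937, plus) and Copz2 (chr11:96849626-96849925, plus) hold only the shorter one, 1 time and 3 times, and so does Tmed6 (chr8:107065595-107065894, minus), 1 time. Capitals mark TGACGTGG and CCACG on either strand. Sequences run 5′ to 3′ along the gene.
Copb2: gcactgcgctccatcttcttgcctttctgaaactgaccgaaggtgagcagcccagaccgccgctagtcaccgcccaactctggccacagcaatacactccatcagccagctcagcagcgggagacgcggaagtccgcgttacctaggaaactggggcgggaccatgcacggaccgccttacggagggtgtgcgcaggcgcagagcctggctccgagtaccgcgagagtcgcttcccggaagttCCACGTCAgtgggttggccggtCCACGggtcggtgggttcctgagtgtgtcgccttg
Kdelr3: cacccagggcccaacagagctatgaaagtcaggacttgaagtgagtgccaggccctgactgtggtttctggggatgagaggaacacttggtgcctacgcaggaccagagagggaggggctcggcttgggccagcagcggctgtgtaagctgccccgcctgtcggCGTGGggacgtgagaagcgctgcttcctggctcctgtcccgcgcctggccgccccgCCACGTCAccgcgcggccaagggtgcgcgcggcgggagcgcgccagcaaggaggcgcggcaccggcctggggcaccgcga
Sec23a: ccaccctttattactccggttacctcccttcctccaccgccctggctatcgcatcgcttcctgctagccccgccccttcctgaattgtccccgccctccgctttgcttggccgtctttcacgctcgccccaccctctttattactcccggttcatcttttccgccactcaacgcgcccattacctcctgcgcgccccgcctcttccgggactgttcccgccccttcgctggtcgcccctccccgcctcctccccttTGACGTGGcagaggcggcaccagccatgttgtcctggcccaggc
Sec23b: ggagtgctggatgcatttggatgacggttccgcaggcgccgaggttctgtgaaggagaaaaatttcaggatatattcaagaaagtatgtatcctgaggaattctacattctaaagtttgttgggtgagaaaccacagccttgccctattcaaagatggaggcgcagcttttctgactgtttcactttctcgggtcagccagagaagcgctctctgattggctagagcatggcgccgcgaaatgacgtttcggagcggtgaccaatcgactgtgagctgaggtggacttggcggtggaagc
Copz1: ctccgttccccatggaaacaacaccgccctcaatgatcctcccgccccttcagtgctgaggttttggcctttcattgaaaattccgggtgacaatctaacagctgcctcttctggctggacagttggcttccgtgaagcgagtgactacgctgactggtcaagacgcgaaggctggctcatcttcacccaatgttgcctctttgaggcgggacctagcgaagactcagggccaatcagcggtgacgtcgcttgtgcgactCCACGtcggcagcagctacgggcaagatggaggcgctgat
Copz2: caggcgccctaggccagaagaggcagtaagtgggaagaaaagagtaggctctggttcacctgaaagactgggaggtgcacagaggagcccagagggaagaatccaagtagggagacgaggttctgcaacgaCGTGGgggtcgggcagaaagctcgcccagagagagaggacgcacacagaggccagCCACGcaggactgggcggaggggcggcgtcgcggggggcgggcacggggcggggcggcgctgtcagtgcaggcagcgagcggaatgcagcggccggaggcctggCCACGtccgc
Tmed6: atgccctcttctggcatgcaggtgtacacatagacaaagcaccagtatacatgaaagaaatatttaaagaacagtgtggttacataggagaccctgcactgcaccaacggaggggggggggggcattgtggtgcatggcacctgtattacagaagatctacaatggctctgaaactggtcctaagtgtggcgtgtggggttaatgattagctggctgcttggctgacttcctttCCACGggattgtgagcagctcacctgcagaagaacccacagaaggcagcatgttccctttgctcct

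Of the 7 genes with TGACGTGG, 1 fell (Arf1), 1 rose (Sec23a) and 5 did not pass, with a median log2 fold change of -0.11. Among the 28 genes with a window but without it, 17 fell, 2 rose and 9 did not pass, with a median of -0.60. For CCACG, 11 of the 28 genes that hold it fell and 3 rose (median -0.23). Of the 7 without it, 7 fell (median -0.89): Sar1b, Sec23b, Sec24a, Copa, Cope, Tmed4 and Kdelr1. Sec16b, Sec24b, Arf5 and Tmed1, which entered the test through their cKO counts, all hold CCACG. Tmed1 is 1 of the 3 rises there and 1 of the 2 rises without TGACGTGG, so the filter bears on both splits. Among the falls without CCACG, the calls of Sar1b, Sec24a and Copa were lost in some fits with 1 library left out. The counts are over few genes, and no test of the difference was made. The share of falls among all tested genes with and without each motif was not taken either.

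Within the COPII coat 6 of 12 genes fell and 1 rose, with a median of -0.56. SAR1 is the GTPase that starts the coat, and both of its genes fell by a like amount. Sar1a stood at 52.4, 56.8 and 64.5 CPM in control replicates 1, 2 and 3 and at 36.7, 39.1 and 34.8 CPM in cKO replicates 1, 2 and 3, a fall of 0.65 ± 0.15 (adjusted p = 0.00268). Sar1b, the isoform needed for lipoprotein export in the gut, had 14.1, 16.3 and 20.2 CPM in control and 10.3, 9.20 and 11.4 CPM in cKO and fell by 0.71 ± 0.19 (adjusted p = 0.00832). In neither gene did the groups overlap. The Sar1b call was lost without control replicate 3 (adjusted p = 0.0531). The log2 ratio of Sar1b to Sar1a was -1.78 ± 0.11 in control and -1.84 ± 0.24 in cKO (SD, n = 3 each), a difference of -0.06 ± 0.15 (SE; exact 2-sided permutation p = 0.8).

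The 2 genes for SEC23, the GTPase-activating subunit of the inner coat, went opposite ways. Sec23b was at 21.1, 21.7 and 21.1 CPM in control and 4.82, 10.3 and 6.12 CPM in cKO, with cKO replicate 2 nearest to the controls, and fell by 1.60 ± 0.25 (adjusted p = 0.000128). Sec23a rose by 0.93 ± 0.27 (adjusted p = 0.0108), from 6.51, 4.12 and 4.07 CPM to 9.65, 7.15 and 10.99 CPM, again with no overlap. The Sec23a call was lost without control replicate 2 (adjusted p = 0.0503) or cKO replicate 3 (0.0682). Tag counts of Sec23b were 3.20, 5.14 and 5.06 times those of Sec23a in the control libraries and 0.5, 1.44 and 0.558 times in the cKO libraries. The log2 ratio thus moved from 2.13 ± 0.39 to -0.44 ± 0.84 (SD, n = 3 each), by -2.57 ± 0.53 (SE). Every cKO library lay below every control library, and the exact permutation p of 0.1 is the smallest that 3 against 3 libraries can give. In the pancreas the SEC23B form is known to be the needed one in mice. Markers of fibroblasts and macrophages rose in the same libraries, and their part in the Sec23a rise was not tested.

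SEC24 is the cargo-binding subunit and has 4 genes in 2 subfamilies, A with B and C with D. Only Sec24a passed the test among these 4, with 8.24, 10.6 and 10.4 CPM in control and 3.66, 7.42 and 4.87 CPM in cKO, a fall of 0.89 ± 0.27 (adjusted p = 0.0155). That call was lost when control replicate 2 or 3, or cKO replicate 1 or 3, was left out, with adjusted p = 0.0600 to 0.0664. Sec24b was at 5.58, 1.06 and 1.65 CPM in control and 3.93, 4.10 and 4.37 CPM in cKO, so that control replicate 1 alone stood above the cKO libraries. Its log2 fold change was 0.60 ± 0.46 (adjusted p = 0.313) and, without control replicate 1, 1.61 (adjusted p = 0.00716). The ratio of Sec24b to Sec24a overlapped between the groups (difference in log2 1.80 ± 0.84, exact permutation p = 0.2). For Sec24c (12.4, 15.1 and 12.7 against 13.2, 11.9 and 12.8 CPM) the change was -0.08, with an interval of -0.44 to 0.27 (1.96 SE either way). Sec24d gave -0.18 (-0.64 to 0.29), from 11.7, 7.07 and 8.51 CPM to 6.82, 7.93 and 9.27 CPM. The Sec24d to Sec24c ratio moved by -0.09 ± 0.32 (exact permutation p = 0.9).

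Both outer coat genes fell. Sec13, which also serves in the nuclear pore, went from 27.1, 21.8 and 29.3 CPM to 10.9, 16.0 and 13.2 CPM, a fall of 0.97 ± 0.19 (adjusted p = 0.000798). Sec31a fell by 0.73 ± 0.15 (adjusted p = 0.000935), from 57.7, 54.0 and 52.1 CPM to 30.6, 33.9 and 34.4 CPM. Both kept the groups apart. Sec16a, the scaffold of exit sites, was lower in all cKO libraries (10.4, 15.1 and 14.0 CPM) than in all control libraries (17.2, 17.4 and 20.2 CPM), yet did not pass (-0.47 ± 0.19, adjusted p = 0.0559), and it passed without cKO replicate 2 (-0.57, adjusted p = 0.0230). The shorter scaffold gene Sec16b was counted 14, 4 and 3 times in control libraries and 67, 59 and 99 times in cKO libraries, or 1.86, 0.471 and 0.381 CPM and 1.13, 1.78 and 1.65 CPM. At those counts no difference was detectable (0.76 ± 0.61, adjusted p = 0.331), and the call of 1.82 reached without control replicate 1 (adjusted p = 0.0427) rests on 4 and 3 control counts. The Sec16b to Sec16a ratio overlapped (difference 1.34 ± 0.68, exact permutation p = 0.2).

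In the COPI coat 4 of 9 genes fell, 0 rose and 5 did not pass (median -0.29). The falls were unequal among subunits of what is, in the cell, 1 complex. Copz2, 1 of 2 genes for the zeta subunit, fell by 3.06 ± 0.26 (adjusted p = 1.40e-06). It stood at 37.2, 34.4 and 34.3 CPM in control replicates 1, 2 and 3 and at 3.07, 6.52 and 3.32 CPM in cKO, a mean of 35.3 ± 1.66 against 4.30 ± 1.92 CPM (SD, n = 3 each). Its paralog Copz1 was at 60.1, 44.9 and 53.4 CPM in control and 43.6, 46.2 and 39.3 CPM in cKO, and did not pass (-0.29 ± 0.16, adjusted p = 0.147). Control replicate 2 of Copz1 lay inside the cKO range, while the Copz2 groups were far apart. For each Copz1 tag there were 0.620, 0.767 and 0.644 Copz2 tags in control and 0.0707, 0.142 and 0.0848 in cKO. The log2 ratio moved by -2.83 ± 0.32 (SE; exact permutation p = 0.1, the smallest possible), and by -3.12 to -2.62 when any 1 library was left out. On library totals Copz2 did not fall (0.09) and Copz1 rose by 2.97, which leaves their difference as it was.

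The gamma subunit showed no such division. Copg1 was at 17.3, 21.0 and 22.1 CPM in control and 19.7, 17.95 and 18.3 CPM in cKO (-0.11, interval -0.44 to 0.22). Copg2 was at 5.85, 6.36 and 9.27 CPM and then 10.5, 7.15 and 8.81 CPM (0.30, interval -0.18 to 0.79). The 3′ end of Copg2 overlaps Mest on the opposite strand, so reads of the 2 genes cannot be told apart where the counting ignored strand. Their log2 ratio moved by 0.40 ± 0.18 with overlapping groups (exact permutation p = 0.2).

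Of the single-copy subunits, Cope, the epsilon subunit, fell most, by 1.48 ± 0.17 (adjusted p = 7.41e-06), from 73.9, 72.8 and 69.0 CPM to 21.7, 31.3 and 24.6 CPM. Arcn1, the delta subunit, had 23.7, 24.6 and 27.1 CPM in control and 7.90, 13.7 and 12.2 CPM in cKO and fell by 1.16 ± 0.21 (adjusted p = 0.000351). Among the ends of Arcn1 transcripts, matches to transcripts of 42 other genes were found at 95% identity or more, so the level of Arcn1 is uncertain. Copa, the alpha subunit, fell by 0.46 ± 0.16 (adjusted p = 0.0266), from 68.9, 70.3 and 88.8 CPM to 55.6, 56.9 and 53.6 CPM, and lost the call without control replicate 3 (-0.33, adjusted p = 0.147) or cKO replicate 3 (0.110). Under a replicate block (the replicate number as a term) Copa, at -0.45, also missed the threshold (adjusted p = 0.0552). The genes of the beta and beta-prime subunits, Copb1 (20.7, 13.4 and 14.4 against 14.2, 17.4 and 15.5 CPM) and Copb2 (34.7, 32.1 and 38.7 against 28.4, 37.0 and 32.1 CPM), overlapped between groups. Their changes were -0.04 (-0.43 to 0.35) and -0.11 (-0.43 to 0.20).

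**Figure D2:**
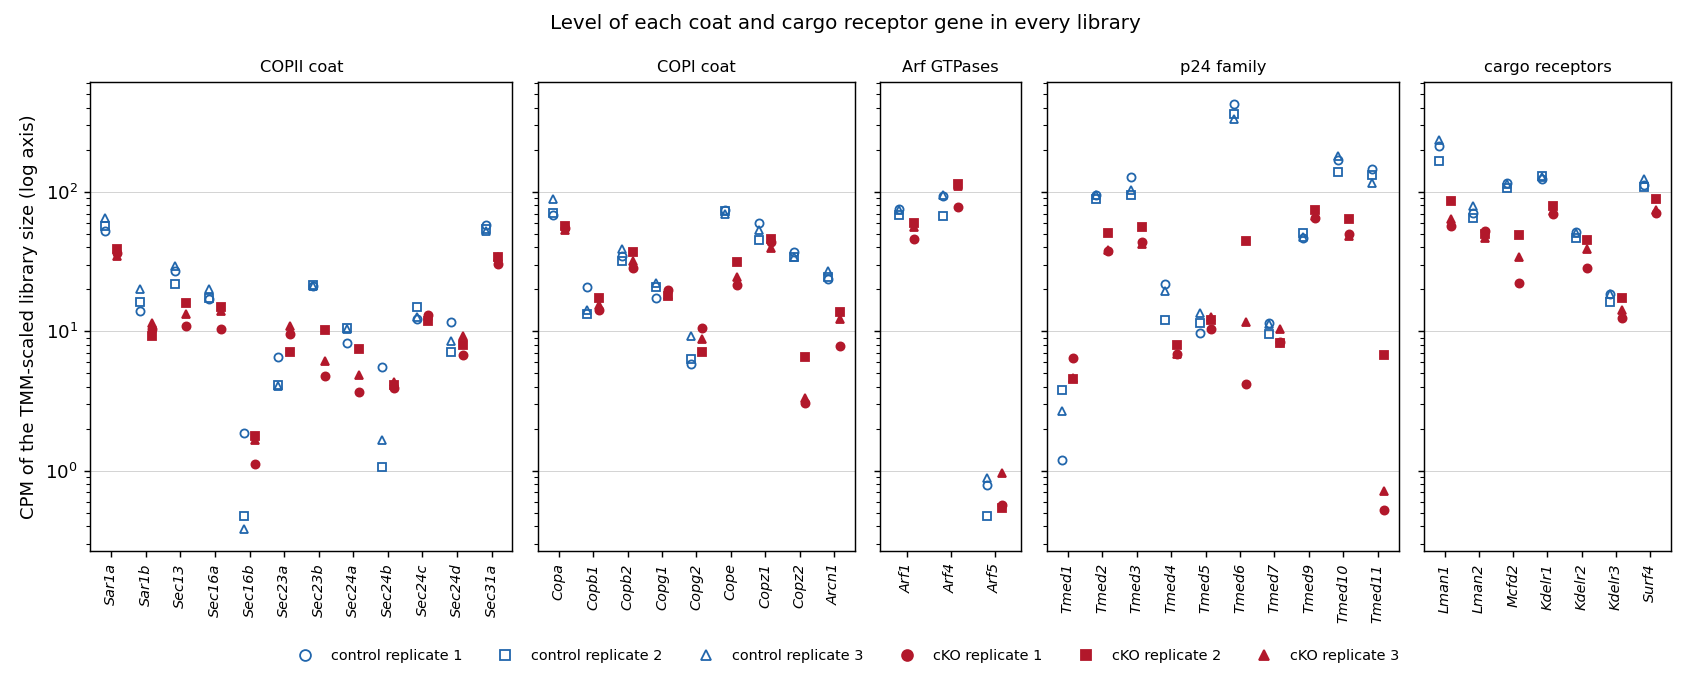
CPM of the TMM-scaled library size (y axis, log) of each of the 41 genes in every library, control as open and cKO as filled marks with 1 shape per replicate number. Copz2, Tmed6 and Tmed11 show the widest gaps between the groups, and cKO replicate 2 (filled squares) is the highest of the cKO libraries for Tmed6 (44.4 CPM) and Tmed11 (6.82 CPM).

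Among the Arf GTPases, which recruit COPI and other coats, Arf1 fell by 0.43 ± 0.16 (adjusted p = 0.0365). It was at 75.1, 68.2 and 74.3 CPM in control and 46.3, 60.02 and 55.7 CPM in cKO. This call was lost without any 1 library except cKO replicate 2 (adjusted p = 0.0705 to 0.143), under a replicate block (0.0645) and with no filter (0.0706). Arf4, which acts with Arf1 at the early Golgi, was at 94.3, 67.7 and 95.3 CPM in control and 78.0, 114.5 and 109.9 CPM in cKO (0.23, interval -0.14 to 0.60), and its end overlaps Pde12 on the opposite strand. Arf4 tags numbered 1.25, 0.993 and 1.28 per Arf1 tag in control and 1.69, 1.91 and 1.97 in cKO. That log2 ratio rose in every cKO library above every control library, by 0.66 ± 0.14 (exact permutation p = 0.1, the smallest possible). Arf5 counts were 6, 4 and 7 (control) and 34, 18 and 58 (cKO), below 1 CPM in all libraries, and no difference was detectable at that depth (-0.03, interval -1.27 to 1.21). The Arf4 to Arf5 ratio overlapped (difference 0.48 ± 0.26, exact permutation p = 0.2, and 0.24 without cKO replicate 2).

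Of the 10 p24 family genes 6 fell and 2 rose, with a median of -1.17, and 1 of the 2 rises is that of Tmed1, which entered the test through its cKO counts. These proteins form complexes of alpha, beta, gamma and delta members that cycle between ER and Golgi and help to load GPI-anchored and other cargo. The summed level of the 10 genes was 962 ± 84.7 CPM in control and 269 ± 53.5 CPM in cKO (SD, n = 3 each).

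Tmed6, a gamma member known for expression in secretory tissues, was the most abundant p24 gene in control, at 429.8, 362 and 333 CPM, and stood at 4.23, 44.4 and 11.8 CPM in cKO. It fell by 4.23 ± 1.02 (adjusted p = 0.0276). Tmed11, an alpha member, fell by 5.70 ± 1.26 (adjusted p = 0.0233), from 146.8, 131 and 116 CPM to 0.522, 6.82 and 0.717 CPM, or 31, 226 and 43 counts in cKO. In both genes cKO replicate 2 was several times above the other cKO libraries but far below all controls. Leaving out cKO replicate 2 gave -5.54 for Tmed6 and -7.70 for Tmed11. Tmed6 missed the threshold without cKO replicate 3 (-3.95, adjusted p = 0.105) and under a replicate block (-4.82, adjusted p = 0.0780). Tmed11 missed it without cKO replicate 1 (adjusted p = 0.0562) or 3 (0.0715) and under the block (-6.47, adjusted p = 0.0660). The acinar markers, with a summed share that was also highest in cKO replicate 2 among the cKO libraries, moved with both genes, and their part was not tested.

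Tmed10, Tmed2, Tmed3 and Tmed4 also fell. Tmed10, the only delta member, went from 169.5, 138 and 182 CPM to 50.03, 64.1 and 48.0 CPM, a fall of 1.59 ± 0.18 (adjusted p = 6.08e-06), though a pseudogene, Tmed10-ps, resembles its 3′ end. Tmed2, the only beta member and a partner of TMED10, fell by 1.14 ± 0.16 (adjusted p = 5.57e-05), from 94.8, 89.2 and 95.4 CPM to 37.4, 50.9 and 38.4 CPM. The gamma member Tmed3 fell by 1.20 ± 0.17 (adjusted p = 6.10e-05), from 127.5, 95.8 and 102.4 CPM to 43.7, 56.2 and 42.3 CPM. Tmed4, an alpha member, went from 21.8, 12.1 and 19.4 CPM to 6.84, 8.02 and 6.92 CPM and fell by 1.29 ± 0.22 (adjusted p = 0.000263).

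Against these, the alpha member Tmed9 rose by 0.51 ± 0.15 (adjusted p = 0.0113), from 46.9, 50.5 and 47.5 CPM to 64.7, 74.7 and 67.1 CPM. Tmed1 rose by 1.02 ± 0.36 (adjusted p = 0.0333) from counts of 9, 32 and 21 (control) and 380, 151 and 278 (cKO), or 1.20, 3.77 and 2.67 against 6.40, 4.56 and 4.64 CPM. The call of Tmed1 was lost when control replicate 1 or 3, or cKO replicate 1 or 3, was left out, with adjusted p = 0.0604 to 0.121, and its 3′ end overlaps Dnm2 on the opposite strand. Tmed5 (9.71, 11.6 and 13.6 against 10.4, 12.1 and 12.6 CPM) and Tmed7 (11.4, 9.54 and 11.3 against 8.39, 8.30 and 10.4 CPM) did not pass, at 0.01 (-0.38 to 0.40) and -0.25 (-0.65 to 0.14). Tmed5 overlaps Mtf2 on the opposite strand and Tmed7 overlaps Ticam2 on the same strand.

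The ratios within subfamilies put these differences on a scale that needs no normalization. Tmed11 had 3.12, 2.60 and 2.44 tags for each Tmed9 tag in control and 0.00833, 0.0917 and 0.0109 in cKO. That log2 ratio moved by -7.06 ± 1.10, and Tmed4 to Tmed9 by -1.76 ± 0.29. Tmed6 to Tmed3 went from 3.37, 3.78 and 3.25 to 0.0971, 0.790 and 0.278, a log2 difference of -3.64 ± 0.88. Tmed1 to Tmed7 moved by 1.35 ± 0.57 and Tmed5 to Tmed7 by 0.28 ± 0.19, and without control replicate 1 these were 0.87 and 0.11. In all 5 of these pairs the groups did not overlap (exact permutation p = 0.1 each, the smallest possible). Tmed6 and Tmed11 made up 38.9% ± 2.46 and 13.6% ± 1.00 of the family's tags in control, and 6.70% ± 6.04 and 0.862% ± 1.04 in cKO. Tmed9 made up 5.06% ± 0.586 in control and 26.0% ± 2.94 in cKO (SD, n = 3 each).

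**Figure D3:**
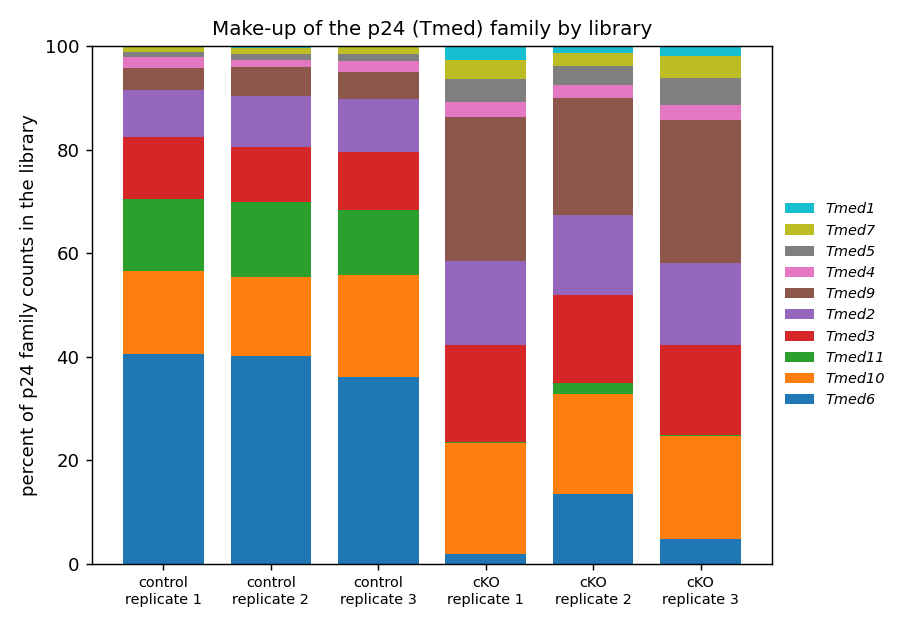
Percent of the summed p24 family counts taken by each of the 10 Tmed genes (y axis) in each library (x axis). Tmed6 and Tmed11 take 36.1% to 40.6% and 12.6% to 14.5% in the control libraries and 1.82% to 13.5% and 0.224% to 2.07% in the cKO libraries, where Tmed9 takes 22.6% to 27.8%.

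All 7 cargo and retrieval receptor genes had negative changes, and 5 of them fell (median -0.55). LMAN1 is a mannose-binding lectin that carries glycoproteins out of the ER together with its small partner MCFD2, and both genes fell by a like amount. Lman1 went from 214, 166 and 235 CPM to 57.0, 85.6 and 63.8 CPM, a fall of 1.58 ± 0.20 (adjusted p = 1.71e-05). Mcfd2 fell by 1.68 ± 0.23 (adjusted p = 6.96e-05), from 115.5, 107 and 114 CPM to 22.1, 49.0 and 34.0 CPM. The related lectin gene Lman2 changed less, with 70.6, 64.7 and 78.9 CPM in control and 52.1, 50.2 and 46.4 CPM in cKO, a fall of 0.53 ± 0.15 (adjusted p = 0.0107) that did not pass without control replicate 3 (0.0614) or cKO replicate 3 (0.0703). Lman1 tags were 3.03, 2.56 and 2.98 times those of Lman2 in control and 1.09, 1.70 and 1.37 times in cKO, a log2 difference of -1.06 ± 0.20 with no overlap (exact permutation p = 0.1, the smallest possible).

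SURF4, a receptor for many soluble secreted proteins, is encoded by Surf4, which fell by 0.55 ± 0.16 (adjusted p = 0.0101), from 112, 108.5 and 124 CPM to 71.1, 89.7 and 74.0 CPM. That call was lost without control replicate 3 (adjusted p = 0.0596) or cKO replicate 3 (0.0623), and Surf2 overlaps the gene's end on the opposite strand. The 3 KDEL receptor genes, whose products return chaperones to the ER, formed a graded series. Kdelr1 fell by 0.78 ± 0.15 (adjusted p = 0.000573), from 124, 129.6 and 128.7 CPM to 69.8, 79.7 and 72.7 CPM. Kdelr2 was lower in each cKO library (28.5, 44.9 and 39.0 CPM) than in each control library (52.0, 46.9 and 50.4 CPM) but did not pass (-0.41 ± 0.18, adjusted p = 0.0699), and it passed without cKO replicate 2 (-0.55, adjusted p = 0.00513). Kdelr3, at 18.6, 16.3 and 18.5 CPM in control and 12.5, 17.2 and 14.2 CPM in cKO, overlapped (-0.28, interval -0.64 to 0.08), with Ddx17 on the opposite strand at its end. The Kdelr3 to Kdelr1 ratio was higher in every cKO library, by 0.49 ± 0.11 in log2 (exact permutation p = 0.1, the smallest possible), whereas Kdelr2 to Kdelr1 (0.35 ± 0.16) and Kdelr3 to Kdelr2 (0.14 ± 0.08) overlapped between groups (exact permutation p = 0.2 each). The neighbours in that series therefore did not part beyond their spread.

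**Figure D4:**
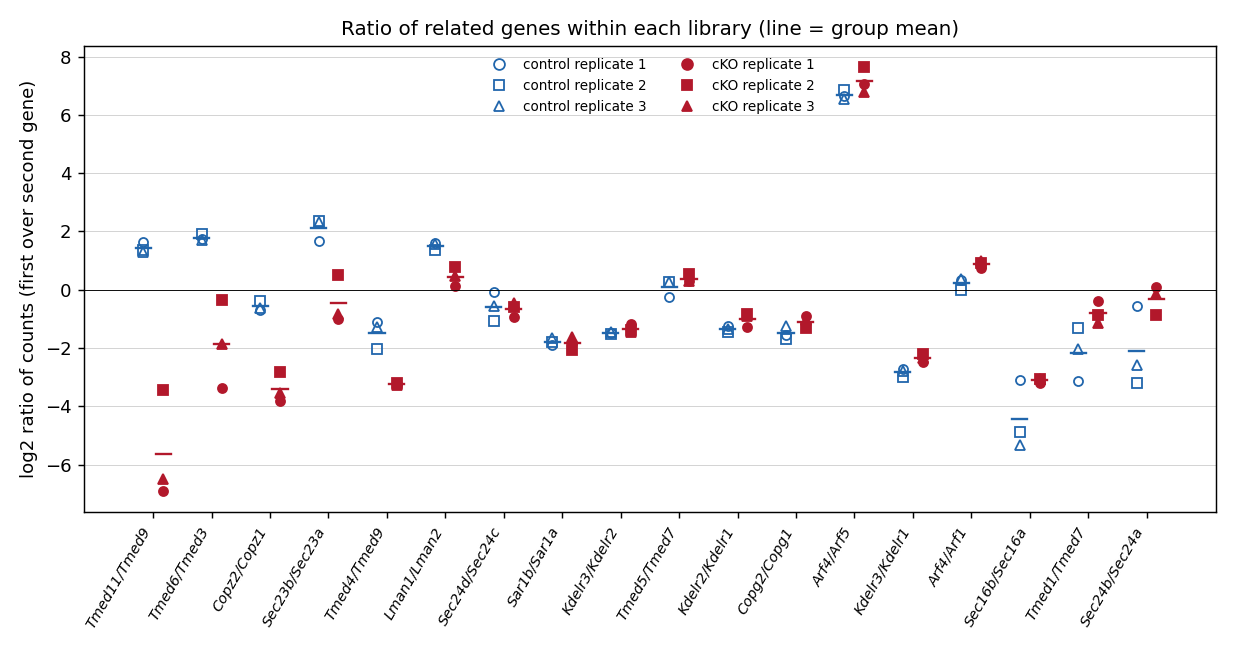
Log2 ratio of the tag counts of 2 related genes (y axis) for 18 pairs, ordered by the difference between groups, with 1 point per library and lines at the group means. Tmed11/Tmed9, Tmed6/Tmed3, Copz2/Copz1, Sec23b/Sec23a, Tmed4/Tmed9 and Lman1/Lman2 lie lower in every cKO library than in any control library.

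Over the 18 pairs the groups did not overlap in 10, with cKO lower in 6 and higher in 4. For single genes the groups did not overlap in 56.2% of all tested genes, so the pair count is not set apart from the general rate. No share over other pairs of genes was taken. Benjamini-Hochberg adjusted values over the pairs ran from 0.18 to 0.9, since a comparison of 3 against 3 libraries cannot go below 0.1 before adjustment.

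The cKO libraries were not alike. Among the 22 genes that fell, cKO replicate 2 had the highest cKO level in 19 (86.4%), and among all 2716 genes that fell it did so in 73.4%. Without cKO replicate 2 the test gave 24 falls and 3 rises among the 41 genes, and without cKO replicate 3 it gave 15 and 1. Over all genes tested, 20.2% were lower and 24.4% higher without cKO replicate 2. Without cKO replicate 3 these shares were 15.5% and 17.8%.

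Other genes of the ER to Golgi route also included both falls and rises on the TMM scale. From a list of 60, 59 were in the tables and 56 were tested: 23 fell, 6 rose and 27 did not pass (median -0.46). Of all tested genes 20.7% were lower and 24% higher (median 0.10). With the filter of 10 CPM in 3 libraries, 18 of the 37 listed genes left fell and 5 rose, beside 38.9% and 29.2% of all genes left. Sec22c and Bcap29, 2 of the 6 rises, entered the test through their cKO counts, and among the 52 genes past the cutoff in all control libraries 23 fell and 4 rose. On library totals 0 of them fell and 55 rose, where 96.4% of all tested genes rose. Gorasp2, a Golgi stacking protein, fell by 1.45 ± 0.16 (adjusted p = 5.12e-06), from 74.1, 66.2 and 81.7 CPM to 24.1, 29.6 and 27.4 CPM. Ergic1 and Ergic2, recycling membrane proteins of the intermediate compartment, had changes of -1.48 ± 0.18 and -1.48 ± 0.20. Bet1, a SNARE of ER to Golgi fusion, fell by 2.18 ± 0.28, and Rint1, part of the tether for COPI vesicles at the ER, by 1.89 ± 0.27. Arf2, a close relative of Arf1, rose by 1.87 ± 0.26 (adjusted p = 3.86e-05), from 3.99, 2.71 and 2.54 CPM to 12.8, 10.6 and 10.3 CPM, without overlap. These 6 genes had the smallest p-values of the list.

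Of 10 genes for transcription factors known to act on secretory pathway genes, 4 fell and 1 was called higher on the TMM scale. Over all tested genes 20.7% were lower and 24% higher. Of the 10, 9 had a higher library share in cKO. In all control libraries 7 were past the cutoff of the filter, and the 4 falls were among these. Xbp1 and Atf6, of the unfolded protein response, had changes of -1.89 ± 0.20 and -1.21 ± 0.18, and Bhlha15 and Spdef of -3.33 ± 0.49 and -3.02 ± 0.45. On library totals Bhlha15 (-0.28, adjusted p = 0.480) and Spdef (0.13, adjusted p = 0.846) did not pass. Xbp1 (1.31, adjusted p = 0.000482) and Atf6 (2.02, adjusted p = 2.25e-06) were higher there. Bhlha15 is also 1 of the 15 acinar markers. Creb3l1, a membrane-bound factor, did not pass (0.04 ± 0.15, adjusted p = 0.843), nor did Creb3l2 (0.15 ± 0.64, adjusted p = 0.871). The 1 gene called higher, Creb3l3, had 0 counts in each control library and 30, 12 and 62 in cKO, so it entered the test through cKO alone, and the call is given only as a description.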

How the data were processed

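Values are raw counts for each gene symbol, deposited by the authors in 6 tables and not normalized. The submitters' processing notes list Bowtie2, edgeR, mm10 and GRCm38 and give no versions or roles. The counting tool, strand setting and annotation were not found in those notes or in the labels. Per the labels' protocols, 500 ng of RNA went into each QuantSeq library. No molecular identifiers are described, so counts may include PCR copies.

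edgeR 4.0.16 (R 4.3.3) was run on the whole table as a robust quasi-likelihood fit with an F test, after filterByExpr (minimum count 10, minimum total 15) and TMM scaling, with Benjamini-Hochberg adjustment over 13132 genes. SE is the size of the log2 fold change over the square root of F. On simulated data with 11922 genes the fit recovered 38.8% of 2-fold and 72.5% of 4-fold changes, among 85 and 91 changed genes tested. Of its 110 calls 11 were false. Far more genes passed in the real data, so these rates do not carry over to it. Paralog ratios used counts plus 1 and exact 2-sided permutation tests over libraries. Replicates of a group differed by more than sampling noise (chi-square per degree of freedom 14.6 to 369.9), and each was counted once. Libraries with the same replicate number showed no shared deviations (correlations 0.014, -0.030 and -0.0077). With 3 libraries per group this cannot exclude a shared animal or day. Coordinates and overlaps at gene ends (last 500 bases) come from GENCODE M21 on GRCm38, to which all 41 genes matched. Resemblance means at least 95% identity over at least 100 bases to the last 300 bases of a transcript.

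Alternatives were DESeq2 1.42.0, RLE factors, library totals, no filter, a filter of 10 CPM in 3 libraries, thinned counts, a replicate block and leaving out each library. Values in every library are given for the 2 largest rises and falls of each class, as the rule for named genes asks, and for both genes of each pair. The remaining genes of the 41 are given the same way. From the other pathway genes the 6 with the smallest p-values are named, and the transcription factors named were picked after their values were seen. The genes and lists were chosen with earlier results of these data known.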

Additional observations from a re-analysis of the deposited data

How the results depend on the processing

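Depth limits Arf5, Sec16b, Sec24b and Tmed1, which held at most 42 counts in any control library. The 41 genes gave 22 falls and 3 rises under the quasi-likelihood test, DESeq2 and RLE factors alike, 21 and 3 with no filter, 24 and 3 with thinned counts, and 21 and 1 among the 33 genes left by the filter of 10 CPM. Over all genes, 15.8% of 17568 were lower and 17.7% higher with DESeq2, and 20.5% and 24.2% with RLE factors. With no filter 14.8% were lower and 18.4% higher, and with thinned counts 21% and 22%. Of the 4183 genes left by the filter of 10 CPM, 38.9% were lower and 29.2% higher. With the replicate number as a block, although the labels state no pairing by number and none was seen, there were 18 falls and 3 rises. Over all tested genes 19.1% were lower and 22% higher with that block. Leaving out 1 library at a time gave 15 to 24 falls and 1 to 4 rises, while 15.5% to 20.2% of all genes were lower and 17.8% to 24.4% higher. The other pathway genes ran from 17 to 26 falls and 3 to 6 rises when 1 library was left out, and gave 20 and 5 with the block.

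Library totals gave 2 falls and 38 rises, and 0 falls and 55 rises among the other pathway genes, beside 96.4% of all 13132 tested genes higher and 0.404% lower. The following log2 fold changes turned positive there: Sar1a 2.60, Sar1b 2.58, Sec13 2.25, Sec16a 2.75, Sec23b 1.55, Sec24a 2.27, Sec24c 3.20, Sec24d 3.10, Sec31a 2.54, Copa 2.80, Copb1 3.21, Copb2 3.12, Copg1 3.17, Cope 1.74, Copz1 2.97, Copz2 0.087, Arcn1 2.04, Arf1 2.81, Arf5 3.25, Tmed2 2.08, Tmed3 2.03, Tmed4 1.96, Tmed7 3.04, Tmed10 1.63, Lman1 1.63, Lman2 2.75, Mcfd2 1.48, Kdelr1 2.47, Kdelr2 2.80, Kdelr3 2.94 and Surf4 2.68. The construction shows the cause: TMM factors, which centre most genes on no change, are left out. The class shares, 6.25, 6.02, 9.20, 2.58 and 4.79 times control for COPII, COPI, Arf, p24 and cargo receptor genes, become 0.656, 0.634, 0.978, 0.279 and 0.512 times with the TMM-scaled size, and ran over 5.65 to 7.32, 5.45 to 6.99, 7.96 to 10.5, 2.43 to 2.85 and 4.44 to 5.41 when 1 library was left out.

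Small changes crossed 0 elsewhere: Arf5 was 0.0046 with no filter and Tmed5 -0.018 with thinned counts. Leaving out 1 library moved Sec24c over -0.13 to 0.017, Sec24d over -0.33 to 0.044, Copb1 over -0.16 to 0.18, Arf5 over -0.35 to 0.15, Tmed5 over -0.10 to 0.14, Sar1b to Sar1a over -0.17 to 0.065 and Sec24d to Sec24c over -0.34 to 0.16. The cause was not tested.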
